A study of Mus musculus with 2 samples.

Results

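Hepatocytes make most of the proteins dissolved in blood plasma, and in male mice they also make the major urinary proteins (Mup). The mRNA of such genes was followed in whole spleen, an organ that stores and clears blood cells and is not their main source. The set held 47 of the 22791 genes in the deposited table: 22 rows whose name is Mup followed by a number, and 25 genes taken by symbol. The members were selected on the comparison described here, of the same libraries, so that their direction is a description of these libraries and not a test.

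Male C57BL/6J mice of 9 to 11 weeks were fasted for 10 h and injected intraperitoneally either with acetaminophen (APAP) at 300 mg/kg, dissolved in 0.9% NaCl, or with 0.9% NaCl alone (ctrl). Their spleens were taken at 30 h, and RNA was pooled in equal shares over 5 ctrl mice and over 11 APAP mice. Each pool gave 1 library by massive analysis of cDNA ends (MACE), which reads the 3′ end of each mRNA. Its counts do not depend on transcript length, so that counts scaled to the library total (CPM) can be compared between genes. No allele was altered in either group.

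The ctrl library held 2735788 counts and the APAP library 2890947. With 1 pooled library per group no difference had a replicate check. Ratios are given as APAP over ctrl of counts normalised with DESeq2 size factors, which divide the raw ratio by 1.11. The bracketed range after a ratio is its exact 95% counting interval, which covers counting error only, not the spread between mice, pools or library preparations. A count of 0 allows up to 3 counts, or 1.10 CPM in ctrl and 1.04 CPM in APAP. All 13 genes listed as defining spleen tissue were measured, with 3.55% of the ctrl library and 4.13% of the APAP library in sum. Of their 97061 counts in ctrl and 119327 in APAP, most came from globin genes. These were Hbb-bs (58578 in ctrl and 73397 in APAP) and Hba-a1 (32289 and 39269). The best counted of the rest, Vcam1, had 1320 and 2072, so that the sum mainly reflects globin mRNA.

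Hepatocytes keep plasma protein genes active through a small set of transcription factors, among them HNF1, HNF4 and proteins of the C/EBP family. During the acute phase response, interleukin-6 acts through STAT3, and interleukin-1 acts with it, to raise positive acute phase proteins such as serum amyloid A and haptoglobin. Negative acute phase proteins, among them albumin and transthyretin, fall in plasma at the same time. Mup proteins are small lipocalins that carry pheromones into urine, and their liver transcription depends on androgens and on growth hormone. In mouse liver many near-identical Mup genes stand side by side.

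All 47 members were found by identifier in the GENCODE M21 annotation of mm10. They lie on 14 chromosomes. The 22 Mup genes form 1 cluster on chromosome 4, from 59956804 to 62150863, a span of 2.19 Mb with 21 genes on the minus strand and 1, Mup6, on the plus strand. Ambp and Orm1 follow on the same chromosome. The fibrinogen genes Fgg, Fga and Fgb are neighbours on chromosome 3 (83007724 to 83049863), as are Apoa1 and Apoc3 on chromosome 9, Saa1 and Saa2 on chromosome 7, and Itih4 and Itih3 on chromosome 14.

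Upstream sequences from RefSeq (GRCm38.p6, the same assembly as mm10) were matched by symbol for 32 of the 47 members: 14 Mup genes with 1 window each and 18 other genes with 20 windows. A window holds 250 bases before and 50 after a RefSeq start, and positions are counted from that start. Both strands were searched for letters that such factors prefer. The letters TTGCNNAA, the form preferred by C/EBP, stood in 9 of the 20 windows of the other members (45%), in none of the 14 Mup windows and in 10.8% of all 32851 windows. The HNF1 form GTTAATNAT stood in 3 of 20 (15%), again in no Mup window and in 0.801% of all. Its shorter part GTTAAT, which overlaps it, stood in 5 of 20 (25%) and in 7.10% of all.

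Alb, Fga and Fgb, genes of the most abundant plasma protein and of the clotting protein, hold both kinds of match in their windows. Fgb holds only the shorter HNF1 letters. Stretches before the starts of these genes are shown. They are chr5:90460720-90460869 (plus strand, bases -150 to -1), chr3:83026003-83026075 (plus strand, -150 to -78) and chr3:83049864-83050013 (minus strand, -150 to -1). Each is written 5′ to 3′ on the strand of its gene, and capitals mark the matches on either strand. The match of Fga to the HNF1 form stands at -46 to -38, beyond the printed stretch. It lies inside the gene as GENCODE M21 draws it, from 83026076.
Alb: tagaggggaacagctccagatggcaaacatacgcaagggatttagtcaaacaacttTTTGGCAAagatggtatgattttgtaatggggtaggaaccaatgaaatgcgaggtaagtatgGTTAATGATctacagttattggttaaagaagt
Fga: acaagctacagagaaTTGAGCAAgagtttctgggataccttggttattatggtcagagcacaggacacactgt
Fgb: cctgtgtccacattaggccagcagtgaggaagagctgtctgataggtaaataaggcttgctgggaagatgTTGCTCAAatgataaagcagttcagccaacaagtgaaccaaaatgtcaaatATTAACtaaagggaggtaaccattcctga

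Saa1 and Saa2, which are read in opposite directions, both hold the C/EBP form, at -182 to -175 and at -183 to -176. Their stretches from -200 to -141 are chr7:46743121-46743180 (minus strand) and chr7:46751633-46751692 (plus strand). They are shown since the paralogs differed in counts in ctrl (24 and 7), though hardly in APAP (7 and 6). The intervals of their ratios overlap. Capitals mark the C/EBP form.
Saa1: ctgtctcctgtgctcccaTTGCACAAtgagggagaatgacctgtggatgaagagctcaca
Saa2: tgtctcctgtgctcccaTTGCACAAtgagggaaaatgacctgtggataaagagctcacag

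The Mup windows held none of the HNF1, C/EBP, HNF4 or STAT letters searched (CAAAGTCCA for HNF4 and TTCNNNGAA for STAT). The STAT letters stood in 4 of the 20 other windows (20%) and in 8.30% of all windows, and the HNF4 letters in none of the 20 and in 0.475% of all. TATAAA, the plain TATA box, was in 2 of 14 Mup windows, those of Mup4 and Mup6, in 6 of 20 others and in 13.6% of all. The overlapping letters TATATAA, chosen after the sequences had been seen, were in 13 of 14 Mup windows (92.9%), in 3 of 20 others and in 3.24% of all. Many Mup genes are near-identical, so that the 14 windows are not 14 separate observations. The distance of these letters from the RefSeq start varied, from -31 to -25 in Mup19 to 13 to 19 in Mup14. A stretch of 30 bases around them is given for Mup15, a row with many counts, for Mup3, whose 3′ end is mostly its own, and for Mup4, the Mup gene with no count in APAP. The stretches lie on the minus strand at chr4:61439719-61439748 (-44 to -15), chr4:62087318-62087347 (-30 to -1) and chr4:59960686-59960715 (-48 to -19). Capitals mark TATATAA.
Mup15: acccgctgaacccagagagTATATAAggac
Mup3: gtccactgaaaccagagagTATATAAggac
Mup4: aaacactgaacccagagcaTATATAAagac

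Summed over all 47 members, the ctrl library held 2515 counts and the APAP library 1593. Their share of the ctrl library was 0.0919% (0.0884 to 0.0956, Wilson 95% interval), that of the APAP library 0.0551% (0.0525 to 0.0579), and the normalised ratio was 0.570 (0.535 to 0.607). For the 22 Mup rows 1062 counts stood against 539, which gave 0.457 (0.411 to 0.507), and for the 25 other genes 1453 against 1054, which gave 0.653 (0.603 to 0.707). Both sums were lower in the APAP library, the Mup sum by the larger factor, with intervals that do not overlap. Since the members were selected on this contrast, nothing is read from that difference. By groups formed later on shared 3′ ends, 16 Mup rows with much sharing had 0.427 (0.380 to 0.479). The 6 rows with less sharing had 0.640 (0.494 to 0.827), mostly from Mup3 and Mup20. This split was made after the values had been seen, and nothing is read from it. In bulk tissue, fewer cells of a kind and less RNA per cell cannot be told apart.

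The size rule used here took genes with 20 or more counts in sum whose ratio differed 2-fold or more, up or down, with 1 outside the interval. Of the 42 members with 20 counts, 22 met it as lower in APAP, where 1.68% of all 12929 genes with 20 counts did. The other 5 members, Mup4, Mup5, Mup6, Mup21 and Saa2, had too few counts. As higher, 1 member (Lbp) met it, where 1.39% of all genes did. Among the 22 were 12 of 18 Mup rows and 10 of 24 other genes. The ratio was below 1 in 39 of 42 members, against 46.6% of all genes, and above 1 in Hp, Lbp and Itih3. The median log2 ratio of the 42 members was -1.11, that of all genes 0.02. Since the members were selected on this contrast, nothing is read from these counts.

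A 3-fold threshold, which the study used for induction, was applied after counts of 0 had been replaced by 1. It was mirrored here to lower values and applied to all genes with no minimum count. By it 11 of 47 members were lower, where 3.74% of all 22791 genes were. None was higher, where 2.40% of all genes were. Another rule asked for at least 5 counts and a ratio of at least 2, without the interval. With that rule 22 of 45 members were lower and 1 higher, where 5.99% and 5.85% of all 16611 genes with 5 counts were.

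**Figure D1:**
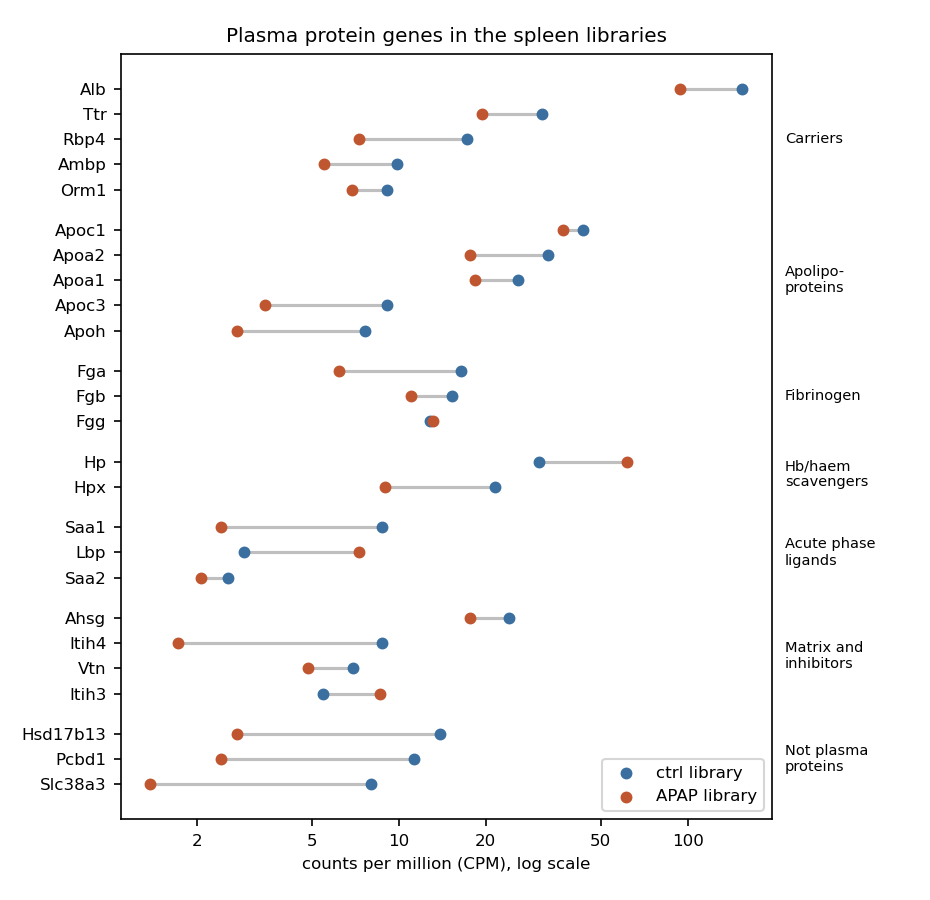
CPM (log axis) of the 25 members taken by symbol in the ctrl library (blue) and the APAP library (orange), 1 pooled library each, grouped by the role of the protein. Alb is highest in both libraries (155 and 94.1 CPM). The orange point lies right of the blue one for Hp, Lbp, Itih3 and, by a small margin that normalisation turns, Fgg.

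Albumin and the small-molecule carriers were the most abundant role besides Mup, with 608 counts in ctrl and 385 in APAP (0.570, 0.5003 to 0.649). Albumin (Alb), the main carrier and osmotic protein of plasma, had 423 counts in ctrl and 272 in APAP. It was the most abundant member in both libraries and ranked 910th among all genes in ctrl and 1881st in APAP. Its ratio was 0.579 (0.495 to 0.676), an interval that excludes 1, but the size rule was missed since the ratio was above 0.5.

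Transthyretin (Ttr), which carries thyroxine and travels with retinol-binding protein, had 86 and 56 counts, a ratio of 0.586 (0.411 to 0.830) close to that of Alb. Its partner, retinol-binding protein 4 (Rbp4), had 47 and 21 counts and met the size rule (0.402, 0.228 to 0.686). The intervals of both partners overlap. Alpha-1-microglobulin and bikunin are cut from the product of Ambp, which had 27 and 16 counts (0.533, 0.268 to 1.03). Orosomucoid 1 (Orm1), an acute phase protein that binds drugs, had 25 and 20 counts (0.720, 0.379 to 1.35). The intervals of Ambp and Orm1 hold 1, and 58.6% of the 3′ end of Orm1 is shared with Orm2 or Orm3, so that its reads may be split between these rows.

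The apolipoproteins had 326 and 229 counts (0.632, 0.532 to 0.751). Apoc1, which inhibits the uptake of lipoproteins and which macrophages also make, had 119 and 107 counts and the ratio nearest to 1 of the 5 (0.809, 0.617 to 1.06). Apoa2, the second protein of high-density lipoprotein, had 90 and 51 counts (0.510, 0.354 to 0.727), just short of a 2-fold difference. Apoa1, the main protein of that particle, had 71 and 53 counts (0.672, 0.462 to 0.973). None of these 3 met the size rule.

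Apoc3, an inhibitor of lipoprotein lipase and the neighbour of Apoa1, had 25 and 10 counts (0.360, 0.154 to 0.776). Beta-2-glycoprotein I (Apoh), which binds phospholipids, had 21 and 8 counts (0.343, 0.131 to 0.806). Both met the size rule on few counts. Exons of Apoh overlap exons of Prkca on the opposite strand, and the strand setting of the counting is not given in the sources used here.

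Fibrinogen is built from the products of Fga, Fgb and Fgg, and thrombin turns it into fibrin. The sum of the genes was 122 counts in ctrl and 88 in APAP (0.649, 0.488 to 0.861). The alpha chain gene Fga had 45 and 18 counts and met the size rule (0.360, 0.196 to 0.634). The beta chain gene Fgb had 42 and 32 counts (0.686, 0.419 to 1.11). The gamma chain gene Fgg had 35 and 38 counts (0.977, 0.601 to 1.59), and its side of 1 changed with the scaling (0.958 to 1.04). The intervals of any pair of the chains overlap. In ctrl the chains lay within 12.8 to 16.4 CPM, in APAP within 6.23 to 13.1 CPM. Exons of Fgg overlap the long non-coding gene Gm30097 on the opposite strand.

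The scavengers of haemoglobin and haem went in opposite directions. Haptoglobin (Hp), which binds free haemoglobin, had 84 counts in ctrl and 178 in APAP. Its ratio of 1.91 (1.46 to 2.50) rested on the most counts of the 3 members above 1, and it missed the 2-fold size. Hemopexin (Hpx), which binds free haem, had 59 and 26 counts and met the size rule as lower (0.397, 0.240 to 0.639). Hp thus made up 3.34% of the members' counts in ctrl and 11.2% in APAP, and without it the ratio of the summed members was 0.524 (0.490 to 0.560).

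Hp is also made by maturing neutrophils, and neutrophil genes moved with it. All 13 genes of a neutrophil list were above 1 and 11 met the size rule, with a median log2 ratio of 1.30 and summed counts of 4242 in ctrl and 11610 in APAP. Among them, S100a8 had a ratio of 2.46, S100a9 of 2.32, Ngp of 3.17 and Camp of 2.16. Lcn2, a lipocalin like the Mup proteins and a neutrophil granule protein, had 89 and 286 counts (2.89, 2.27 to 3.71), opposite to all 18 Mup rows with 20 counts. Of 6 lipocalins outside the members it alone reached 20 counts, so that it does not stand for the family. By the rule of 5 counts 1 of 4 (Lcn2) was higher and 2 were lower, where 5.85% and 5.99% of all genes were. The part of neutrophils in the Hp value was not tested.

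The acute phase ligands had few counts, 39 and 34 in all (0.785, 0.480 to 1.28). Serum amyloid A1 (Saa1), a strongly induced acute phase protein of the liver, had 24 and 7 counts and met the size rule as lower (0.263, 0.0955 to 0.628). Its paralog Saa2 had 7 and 6 counts (0.771, 0.214 to 2.68), too few to place. Of the 3′ end windows of either gene, 9.56% are shared with another gene. Lipopolysaccharide-binding protein (Lbp), which passes endotoxin to CD14, had 8 and 21 counts and was the one member to meet the rule as higher (2.36, 1.01 to 6.17). The lower bound of Lbp lies so near 1 that the call was lost with TMM or upper quartile factors.

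Among proteins that bind matrix or inhibit proteases, fetuin-A (Ahsg), which keeps calcium phosphate in solution, had 66 and 51 counts (0.695, 0.473 to 1.02). Exons of Ahsg overlap the antisense gene Gm30505. Vitronectin (Vtn), an adhesion protein of plasma and matrix, had 19 and 14 counts (0.663, 0.308 to 1.40). Both intervals hold 1. Inter-alpha-trypsin inhibitor heavy chains 3 and 4 are encoded by the neighbours Itih3 and Itih4. Itih4 had 24 and 5 counts and met the size rule as lower (0.188, 0.0559 to 0.501), whereas Itih3 had 15 and 25 counts (1.5, 0.761 to 3.06). The intervals of Itih3 and Itih4 do not overlap. Both have few counts and were selected on this contrast, so that nothing is read from their difference.

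The remaining 3 members are not plasma proteins. Hsd17b13 is an enzyme on hepatocyte lipid droplets, Pcbd1 recycles tetrahydrobiopterin and is also a dimerisation partner of HNF1, and Slc38a3 is a glutamine transporter. Hsd17b13 had 38 and 8 counts (0.189, 0.0764 to 0.412), Pcbd1 31 and 7 (0.203, 0.0755 to 0.470), and Slc38a3 22 and 4 (0.164, 0.0410 to 0.482). Their sum was 91 and 19 counts with a ratio of 0.188 (0.108 to 0.311), the lowest of the roles. Since the members were selected on this contrast, nothing is read from that rank. The interval also holds the ratio of the summed pancreatic acinar genes (0.289). The part of pancreas tissue in the values of these genes was not tested. Each of these genes met the size rule and the 3-fold threshold.

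**Figure D2:**
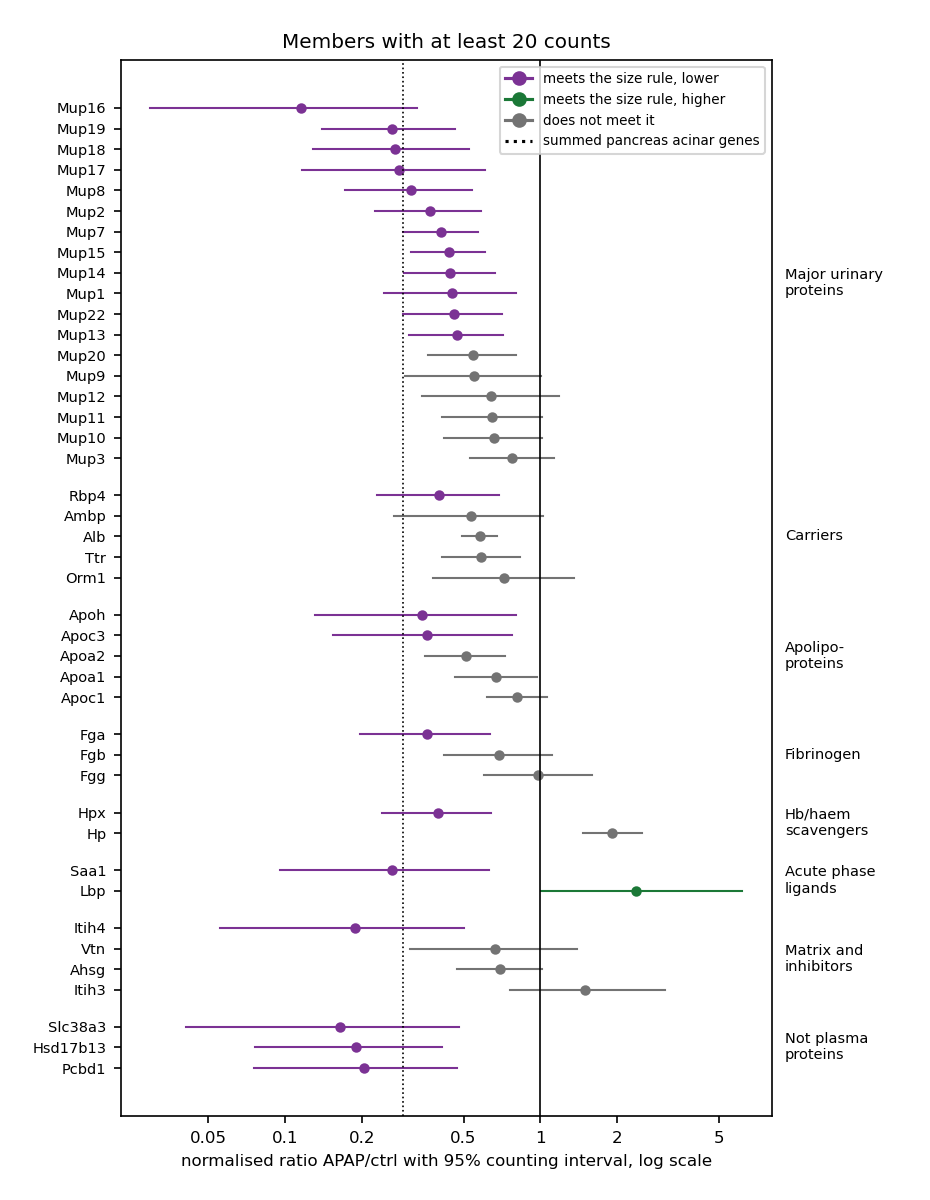
Normalised ratio APAP/ctrl (log axis) with its 95% counting interval for the 42 members with at least 20 counts, by role, in purple or green where the size rule was met and in grey where it was not. The solid line is 1 and the dotted line the summed ratio of the pancreas acinar genes (0.289). Hp, Lbp and Itih3 lie right of 1, and the 18 Mup rows lie between 0.116 and 0.773.

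The Mup rows ranged from 0.116 to 0.773 in ratio, all below 1 where 20 counts were reached. The rows with the most counts were Mup15 with 115 in ctrl and 56 in APAP (0.438, 0.313 to 0.608) and Mup7 with 117 and 53 (0.408, 0.289 to 0.569). Mup16 had the lowest ratio, with 31 and 4 counts (0.116, 0.0298 to 0.328). Mup3 had the highest, with 64 and 55 counts (0.773, 0.529 to 1.13), an interval that holds 1. Both are the extremes of 18 rows, and 87.3% of the 3′ end windows of Mup16 recur in other genes, so that nothing is read from their difference.

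Besides Mup16, the rows Mup8, Mup17, Mup18 and Mup19 also passed the 3-fold threshold. Mup19 had 55 and 16 counts (0.262), Mup18 had 40 and 12 (0.270), Mup17 had 29 and 9 (0.279) and Mup8 had 52 and 18 (0.312). Mup1, Mup2, Mup13, Mup14 and Mup22 met the size rule with ratios of 0.368 to 0.470, from 38 to 77 counts in ctrl and 19 to 38 in APAP. Mup9, Mup10, Mup11 and Mup12 had ratios of 0.552 to 0.658 and intervals that hold 1.

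Mup4, Mup5, Mup6 and Mup21 had hardly any reads. Mup4, which is known for expression in tissues of the nose, had 4 counts in ctrl and 0 in APAP. Its counting interval reaches up to 1.36 and so holds 1, although with a count of 1 in place of 0 it passed the 3-fold threshold. Mup5 had 1 count in each library, Mup6 had 4 and 4, and Mup21 had 3 and 2. None of these 4 can be placed above or below 1 at this depth.

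Reads of single Mup genes are hard to assign. Of the last 300 bases of a transcript, where MACE reads fall, every window of 50 bases recurs in the transcript of another gene for 10 of the 22 Mup rows, and more than 50% of windows recur for 15 rows. Of the 25 other members, 21 share none. The share was 43.4% to 100% in 16 Mup rows and 0% to 35.5% in Mup3, Mup4, Mup5, Mup6, Mup20 and Mup21. The former had 913 counts in ctrl and 433 in APAP (0.427, 0.380 to 0.479), the latter 149 and 106 (0.640, 0.494 to 0.827). These groups were formed after the values had been seen. Most of the latter counts come from Mup3 and from Mup20, the gene of the male pheromone darcin, which had 73 and 44 counts (0.542, 0.364 to 0.799). How reads that match several genes were treated is not given in the sources used here. If each such read was counted in 1 row, the sum over the rows does not depend on the split between them. If it was counted in several rows, the sum holds it repeatedly and its interval is too narrow. If it was left out, the sum misses it.

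Rows just outside the naming rule are the pseudogenes Mup-ps22 and Mup-ps19. Mup-ps22, on chromosome 11 from 55123695 to 55123937 and away from the cluster, had 49 counts in ctrl and 14 in APAP (0.257, 0.131 to 0.473). Mup-ps19 had 4 and 1. The count of Mup-ps22 was as large as that of many Mup rows, and no other annotated gene lies over it.

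**Figure D3:**
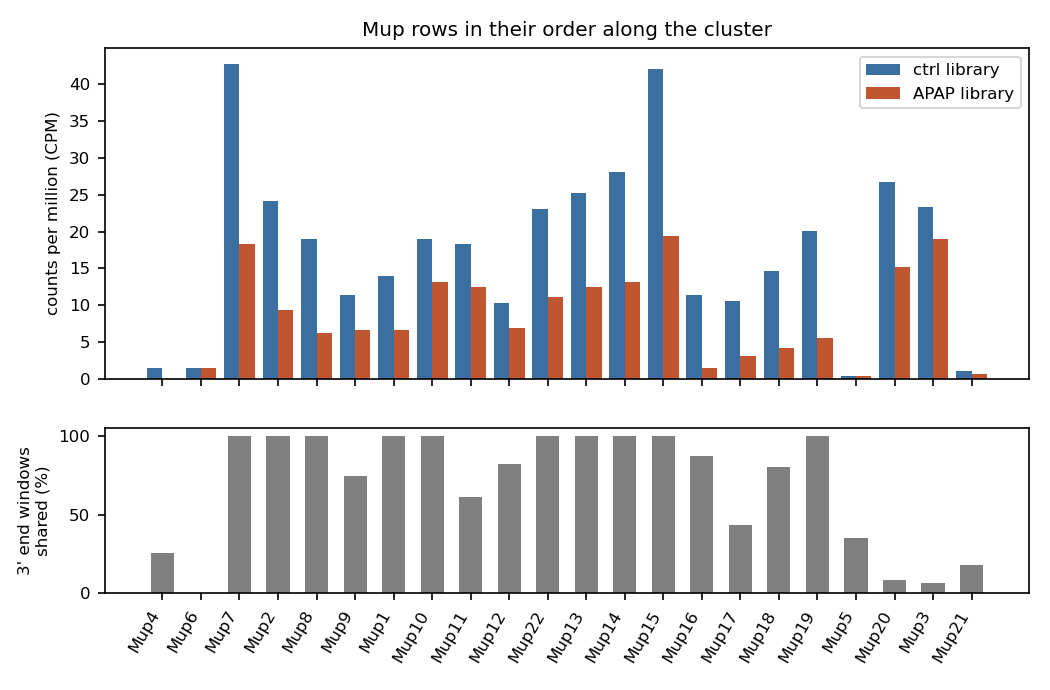
Above, CPM of the 22 Mup rows in ctrl (blue) and APAP (orange), 1 pooled library each, in their order along chromosome 4. Below, the percentage of windows of 50 bases in the last 300 bases of the transcript that recur in another gene's transcript. Mup15 and Mup7 have the tallest bars (42.0 and 42.8 CPM in ctrl) and share all windows, while Mup4, Mup5, Mup6 and Mup21 stay under 1.5 CPM.

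The spread of the members around their sum is given as a description, on the contrast that selected them and with counting error alone. The interval of 28 of the 42 members holds the ratio of the summed members (0.570), 5 lie above it and 9 below. Above were Apoc1, Fgg, Hp, Itih3 and Lbp. Below were Hsd17b13, Itih4, Pcbd1, Slc38a3 and the rows Mup7, Mup8, Mup16, Mup18 and Mup19. All 5 carriers hold it, Alb included.

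Most other secreted and intracellular genes of hepatocytes with 20 counts were below 1 as well, though fewer were measured well. Of 53 other secreted products 49 had a row and 13 had 20 counts. Of those, 10 were below 1 and 3 above, with a median log2 ratio of -0.62, and 3 met the size rule, all lower: Serpina3k with 81 and 40 counts (0.444), Serpina1e with 72 and 38 (0.475) and the vitamin D-binding protein gene Gc with 40 and 17 (0.383). The 5 Serpina1 rows, all among the 10 below 1, encode alpha-1-antitrypsins and are also near-identical. Together they had 248 and 155 counts (0.563, 0.457 to 0.690). That is close to the ratio of Alb.

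The sum of that list went another way than its median, with 1593 and 1737 counts (0.981, 0.916 to 1.05). Transferrin (Trf) with 921 and 1213 counts and ceruloplasmin (Cp) with 78 and 148 held most of it. Without them, a choice made after their values were seen, the sum was 594 and 376 (0.570, 0.499 to 0.649).

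Of 31 intracellular and membrane genes of hepatocytes, 29 had a row, 6 of these had no count in APAP and 1 none in ctrl. Among the 11 with 20 counts, 9 were below 1 and 2 above, with a median log2 ratio of -0.62, and 2 met the size rule as lower. The list summed to 436 counts in ctrl and 317 in APAP (0.654, 0.564 to 0.758), a ratio near that of the members without Mup.

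Transcription factors enriched in hepatocytes had few counts. Of 12, 5 had no row in the table, and those with a row summed to 20 counts in ctrl and 36 in APAP. Hnf4a had 2 counts in ctrl and 1 in APAP. Only Prox1 had 20 counts (11 and 18), a factor that lymphatic endothelium also makes, followed by Foxa2 with 4 and 3. The ratio of their sum was 1.62 (0.913 to 2.95), an interval that holds 1. With so few counts nothing is read from these factors, and the source of the members' counts was not tested.

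Genes of acute phase signalling were measured in the spleen itself. Of 15, 14 had 20 counts, 9 were above 1 and 5 below, with a median log2 ratio of 0.19, while Il6 had 1 count in each library. Cebpd, a C/EBP factor of the acute phase response, had 53 and 139 counts and was the only gene of the list to meet the size rule (2.36, 1.71 to 3.30).

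Receptors and partners of the plasma proteins, such as the haptoglobin receptor, integrins that bind fibrinogen and receptors of lipoproteins, had 18 of 21 genes with 20 counts. Of these 13 were above 1 and 5 below, with a median log2 ratio of 0.43, and none met the size rule. The best counted were Itgb2, a chain of the leukocyte integrin that binds fibrinogen, with 505 and 625 counts (1.11, 0.989 to 1.25), and Lrp1, which takes up complexes of haem and hemopexin, with 291 and 501 (1.55, 1.34 to 1.80). The summed ratio of this list was 1.24 (1.18 to 1.31), above that of the members.

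Markers of tissues next to the spleen were lower in APAP along with the members. All 30 genes of pancreatic acinar cells were below 1 and met the size rule, with a median log2 ratio of -1.77. They summed to 182124 counts in ctrl, or 6.66%, and to 58426 in APAP, or 2.02%, and none was at 0. The most abundant, Ctrb1, had 22539 and 7597 counts (0.303, 0.296 to 0.311), and Prss2, Pnlip and Cela1 had ratios of 0.287 to 0.320. Scaled by library totals, the summed members had a ratio of 0.599, and with the pancreas list left out of those totals 0.571. The part of pancreas tissue in the members' values was not tested.

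Adipocyte genes were below 1 in 8 of 8 with 20 counts, with ratios of 0.338 to 0.874 and a median log2 ratio of -0.76, and 2 of them met the size rule. They summed to 834 and 504 counts (0.544, 0.486 to 0.608), close to the summed members, and 1 of 12 was at 0 in APAP. These 2 were Cfd with 307 and 134 counts (0.393) and Plin1 with 16 and 6 (0.338). Of the members, adipocytes are known to make Rbp4 and Hp, which lay on opposite sides of 1. Enterocyte genes, a further site of Apoa1 and Apoc3 expression, summed to 35 and 26 counts, with 4 of 9 genes without a row, and the best counted were Cdh17 (15 and 16) and Mttp (9 and 8). The part of these tissues was not tested.

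Macrophage genes were above 1 in 16 of 16, with a median log2 ratio of 0.55 and none that met the size rule. Lyz2 had a ratio of 1.15 and Vcam1 of 1.41. Apoc1, which macrophages also make, had a ratio of 0.809 with an interval that holds 1 (0.617 to 1.06). The part of macrophages in the Apoc1 value was not tested. Of the 13 genes that define spleen tissue, 5 were above 1 and 8 below, with a median log2 ratio of -0.22, while their sum, held mostly by the globin genes Hbb-bs (1.13) and Hba-a1 (1.09), had a ratio of 1.11. The members' summed ratio lies below the interval of either list's sum.

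**Figure D4:**
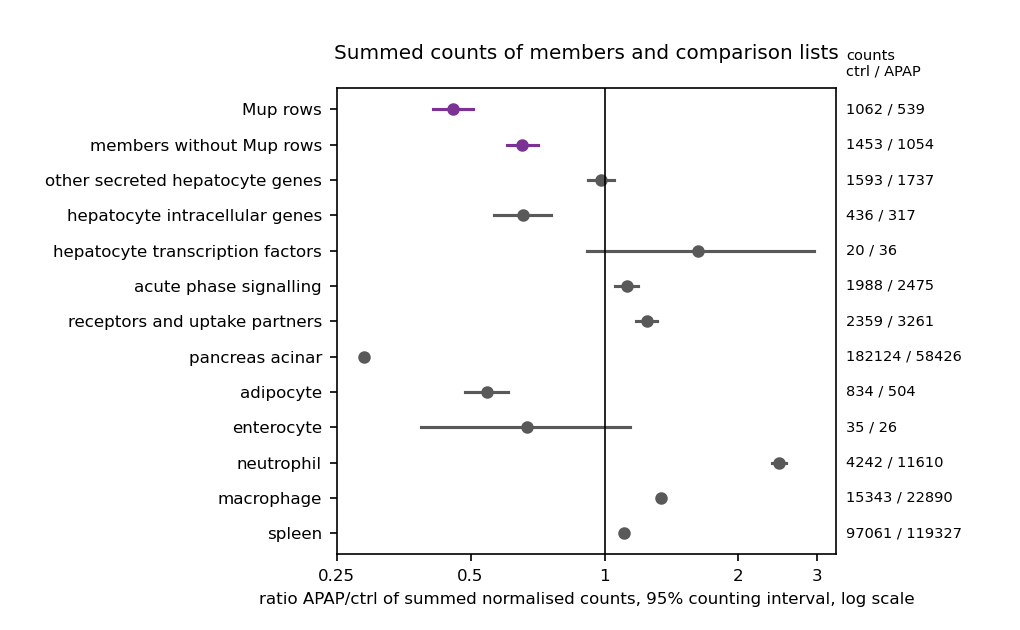
Ratio APAP/ctrl of summed normalised counts (log axis) with the 95% counting interval, for the members in purple and for comparison lists in grey, with the raw counts of both libraries at the right. The Mup rows (0.457) and the other members (0.653) lie left of 1 with the intracellular hepatocyte genes (0.654), the adipocyte genes (0.544) and the pancreas acinar genes (0.289), while the neutrophil genes (2.46) lie right of it. The other secreted hepatocyte genes (0.981, 0.916 to 1.05) and the hepatocyte transcription factors (1.62, 0.913 to 2.95) have intervals that hold 1. So do the enterocyte genes (0.669, 0.386 to 1.14).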

How the data were processed

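Spleen RNA of male C57BL/6J mice was pooled per group, and 1 MACE library was made from each pool. Per the labels and the study's methods, the authors removed duplicates by molecular identifiers, trimmed and poly(A)-clipped the reads, mapped them to mm10 and counted genes with HTSeq. DESeq2 was named too. Versions, the aligner, the annotation, the strand setting and the treatment of multiply mapped reads were not given in the sources used here.

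Every result rests on the raw counts that the authors deposited for each gene. Their other columns, headed TPM and size-factor normalised, and 3 columns of means of both libraries were not used.

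DESeq2 size factors (DESeq2 1.42.0, R 4.3.3) scaled the ratios. Intervals were converted from exact Clopper-Pearson limits on the fraction of a gene's counts found in APAP (scipy 1.17.1, numpy 2.4.6, pandas 2.3.3, Python 3.11.15, matplotlib 3.10.9). Total counts set the precision. Alternatives were library totals, edgeR 4.0.16 TMM and upper quartile factors, totals without haemoglobin and immunoglobulin genes or without the pancreas list, other minimum counts and other folds. The code was tested on simulated data.

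The members, the 12 comparison lists with 224 genes and the rules were chosen with earlier results of these data known. All members are named. Of each other list, up to 4 genes that met the size rule are named by total counts, or the 2 with the most counts where none met it. Genes of the intracellular hepatocyte list that this rule selects are not reported here. Trf, Cp, Hnf4a, Il6 and the Serpina1 sum were named after their values were seen. Protein sequences were not analysed here. Shared 3′ ends were searched in GENCODE M21 transcripts.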

Additional observations from a re-analysis of the deposited data

How the results depend on the processing

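No paired analysis was possible because 1 library stands for each group. For the same reason no library could be left out, and no value has an error that includes biological variation. Other scalings shifted all log2 ratios by -0.03 to 0.09, and of the members Fgg alone changed its side of 1. The ratio of the summed members, 0.570, was 0.653 without the Mup rows and 0.524 without Hp, the latter chosen after seeing the data. The 22 members that met the size rule as lower became 13 with at least 50 counts, where 114 of all 10460 genes met it. They became 10 with a ratio of at least 3, where 101 of all 12929 genes met it. They numbered 22 under all 5 other scalings, where 174 to 228 of all 12929 genes met it. The 1 member that met it as higher (Lbp) became 2 with library totals, whether or not haemoglobin and immunoglobulin genes were counted in them. Of all 12929 genes, 237 met it with these genes counted and 254 without. It also became 2 with a ratio of at least 1.5 (475 of all genes). It became 0 with TMM or upper quartile factors (163 of all genes with either) and with a ratio of at least 3 (49 of all genes). With at least 50 counts it became 0 as well, where 67 of all 10460 genes met it. By the rule of 5 counts the 1 higher member became 2 with library totals of either kind, where 1056 and 1071 of all 16611 genes were higher. With these 2 scalings the median log2 ratio of the receptor list was 0.50 and 0.52, and that of the pancreas list -1.69 and -1.68. Most members had fewer than 100 counts, so that their intervals span a factor of 2 or more.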
